A study of Mus musculus with 8 samples.

Results

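Kdm5c, Kdm6a, Ddx3x, Eif2s3x, Usp9x, Uba1 and Utp14a are X-linked genes that encode regulators of chromatin, RNA and protein turnover, and they were followed here allele by allele in mouse embryonic fibroblasts (MEFs). The 7 genes were chosen by name for these functions, with earlier results of these data known. They are 7 of 2601 X-linked gene IDs and of 46078 gene IDs in all, and each had at least 10 allelic reads in every pool of libraries.

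In female mammals X chromosome inactivation (XCI) silences most genes of one X chromosome, the inactive X (Xi), while the other remains the active X (Xa). Xist, a noncoding RNA made by the Xi, coats that chromosome. A minority of genes, called XCI escape genes, are still transcribed from the Xi, and several of them encode proteins for which the number of active copies matters, such as the histone demethylases KDM5C and KDM6A. A gene silenced on the Xi is called XCI subjective. Several escape genes also have a copy on the Y chromosome.

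RNA-seq was performed on 8 samples of clonal female MEF lines from a cross of a 129 strain, labelled 129S1/SvImJ, with CAST/EiJ. In all of them the Xi is of 129 and the Xa of CAST origin. The 4 groups, of 2 samples each, were WT, XiΔXist (Xist deleted on the Xi), XiΔXist shSCR and XiΔXist shYY1. Cells of the last groups were XiΔXist MEFs transduced with lentivirus and selected, and carried either a scrambled short hairpin RNA or one against YY1, a zinc finger transcription factor that also binds the Xist locus. Each replicate of shYY1 carried a different hairpin according to the list of libraries in the supplement of the study. WT and XiΔXist are separate clonal lines, so the deletion and the clone cannot be told apart. The replicates had been pooled into 1 column of counts per allele and group, so every value below is that of 1 pool, without a spread between replicates. A test between pools compares those libraries and not the conditions. Intervals cover counting error only.

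The pools held between 2393545 and 28329701 allelic reads, which are reads that cover a position differing between the strains, and the hairpin pools were the shallow ones. Mitochondrial genes took between 20.2% and 39.5% of the reads. The targeted genes followed the labels. Xist had 35256 Xi reads in WT and 13 in XiΔXist, and 0 Xi reads in both hairpin pools. Yy1 (chr12:108792973-108820148) had 99.0 CPM (counts scaled to a common total of allelic reads, per 1000000) over both alleles in shSCR and 36.7 in shYY1. Markers of fibroblasts summed to between 3869 and 9045 CPM, with 1 of 9 at 0 in shSCR only, and those of epithelial, blood and endothelial cells to at most 2.09 CPM per list.

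A YY1 motif, AANATGGC, was searched on both strands of RefSeq promoter windows, which span 250 bases before to 50 after a transcription start (GRCm38.p6). Of the 7 genes, 6 had a window, and 3 of them held the motif, against 6.96% of 27025 genes with a window and 7.28% of 1223 X-linked windows. The windows with a match are shown because YY1 was the knocked-down factor, with the match in capitals. Ddx3x, Kdm6a and Utp14a had no match in theirs. The letters overlap no second match of the same motif in these windows. A match is a string of letters and not a measured binding site.

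Eif2s3x, chrX:94212602-94212901, minus strand, match from base 16 after the start, same strand: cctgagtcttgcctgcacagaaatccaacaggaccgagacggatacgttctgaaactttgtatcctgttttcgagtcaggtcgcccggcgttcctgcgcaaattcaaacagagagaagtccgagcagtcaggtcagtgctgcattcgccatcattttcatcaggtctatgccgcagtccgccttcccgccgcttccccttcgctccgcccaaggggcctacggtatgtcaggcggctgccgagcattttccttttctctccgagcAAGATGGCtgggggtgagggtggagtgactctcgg
Kdm5c, chrX:152232977-152233276, plus strand, match from base 28 after the start, same strand: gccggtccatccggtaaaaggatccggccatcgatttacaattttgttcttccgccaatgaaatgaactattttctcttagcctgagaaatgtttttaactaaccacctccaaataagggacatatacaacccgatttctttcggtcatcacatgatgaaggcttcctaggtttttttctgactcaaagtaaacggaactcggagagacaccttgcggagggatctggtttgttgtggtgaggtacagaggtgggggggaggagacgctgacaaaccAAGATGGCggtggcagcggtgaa
Uba1, the most downstream of its 3 windows, chrX:20662646-20662945, plus strand, match from base 33 after the start, opposite strand: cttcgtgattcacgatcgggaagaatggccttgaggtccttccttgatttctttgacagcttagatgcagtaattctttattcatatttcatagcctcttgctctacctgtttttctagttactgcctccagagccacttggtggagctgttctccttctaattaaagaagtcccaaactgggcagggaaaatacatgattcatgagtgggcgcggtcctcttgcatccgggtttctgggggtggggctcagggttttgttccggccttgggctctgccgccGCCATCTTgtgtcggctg

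Of the 3 genes, Eif2s3x and Kdm5c were read from the Xi in all 4 pools, whereas Uba1 was not.

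In WT MEFs the 7 genes separated into 5 that were read from both X chromosomes and 2 that were read almost wholly from the Xa. With the cutoff of the study (Xi reads at least 0.05 of Xa reads), Kdm5c, Kdm6a, Utp14a, Eif2s3x and Ddx3x were XCI escape genes, and Usp9x and Uba1 were XCI subjective. The same cutoff was met by 12.1% of 480 genes on the X that had 10 or more allelic reads. The genes are described in the order of their roles, with Wilson 95% intervals on each share.

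Kdm5c (chrX:152233020-152274535) encodes a demethylase of histone H3 lysine 4. It had 345 Xi and 391 Xa reads in WT, an Xi share of 46.9% (43.3 to 50.5), and 384 Xi and 275 Xa reads in XiΔXist, a share of 58.3% (54.5 to 62.0). In the shSCR pool 93 of 230 reads were of the Xi (40.4%, 34.3 to 46.9), and in shYY1 56 of 219 (25.6%, 20.2 to 31.7). The Xi allele thus gave the larger number of reads in XiΔXist alone, and the smallest share was that of shYY1.

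Kdm6a (chrX:18162575-18279936) encodes UTX, a demethylase of histone H3 lysine 27 and a subunit of the MLL3/4 COMPASS complexes. In WT 951 of 2379 reads were of the Xi (39.97%, 38.0 to 42.0), and in XiΔXist 1456 of 3017 (48.3%, 46.5 to 50.04). The hairpin pools held few reads of the gene, 37 of 106 from the Xi in shSCR (34.9%, 26.5 to 44.4) and 30 of 105 in shYY1 (28.6%, 20.8 to 37.8). The WT and XiΔXist intervals did not overlap, and those of the hairpin pools did.

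Ddx3x (chrX:13280970-13294052) encodes a DEAD-box RNA helicase that acts in translation initiation. The Xi share was 24.6% in WT (152 of 619 reads, 21.3 to 28.1) and 32.4% in XiΔXist (291 of 899, 29.4 to 35.5). It was 26.2% in shSCR (39 of 149, 19.8 to 33.8) and 27.1% in shYY1 (46 of 170, 20.9 to 34.2). XiΔXist was the highest of the 4 pools, and its interval overlapped those of the hairpin pools but not that of WT.

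Eif2s3x (chrX:94188707-94212862) encodes the gamma subunit of eIF2, the factor that brings the initiator tRNA to the ribosome. Its Xi share was 27.9% in WT (38 of 136 reads, 21.1 to 36.0), 22.6% in XiΔXist (37 of 164, 16.8 to 29.5) and 22.6% in shSCR (55 of 243, 17.8 to 28.3). In shYY1 it was 39.7% (87 of 219, 33.5 to 46.3). The first 3 intervals overlapped each other, and the interval of shYY1 lay above that of XiΔXist and that of shSCR.

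Utp14a (chrX:48256862-48282453) encodes a component of the small-subunit processome, which matures the ribosomal RNA of the small subunit. The Xi share was 34.1% in WT (330 of 967 reads, 31.2 to 37.2) and 38.6% in XiΔXist (468 of 1213, 35.9 to 41.4). In shSCR 0 of 68 reads came from the Xi, so the share could be as high as 4.41%, and in shYY1 1 of 76 (1.32%, 0.233 to 7.08). The Xi reads seen in the untreated pools were therefore almost lacking in the hairpin pools. Utp14a is the only one of the 7 genes that another annotated gene overlaps, the antisense lincRNA 9530027J09Rik, and since the use of strand in counting is not given in the sources used here, reads of both may be mixed. That lincRNA itself had 12 Xi and 23 Xa reads in WT, 34 and 20 in XiΔXist, 0 and 9 in shSCR, and 0 and 12 in shYY1.

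Usp9x (chrX:13071498-13173328) encodes a deubiquitinase, and Uba1 (chrX:20658326-20683179) the main E1 enzyme, which activates ubiquitin. Usp9x, the gene with the most allelic reads of the 7 in WT and XiΔXist, had 3 Xi reads of 10243 in WT (0.0293%, 0.00996 to 0.0861) and 12 of 11671 in XiΔXist (0.103%, 0.0588 to 0.180). It had 0 of 587 in shSCR, which allows up to 0.511%, and 0 of 628 in shYY1, which allows up to 0.478%. Uba1 had 0 Xi reads of 683 in WT, 0 of 742 in XiΔXist and 0 of 552 in shSCR, so that shares as high as 0.439%, 0.404% and 0.543% are possible, and 1 of 630 in shYY1. Neither gene reached an Xi share of 1% in any pool.

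**Figure D1:**
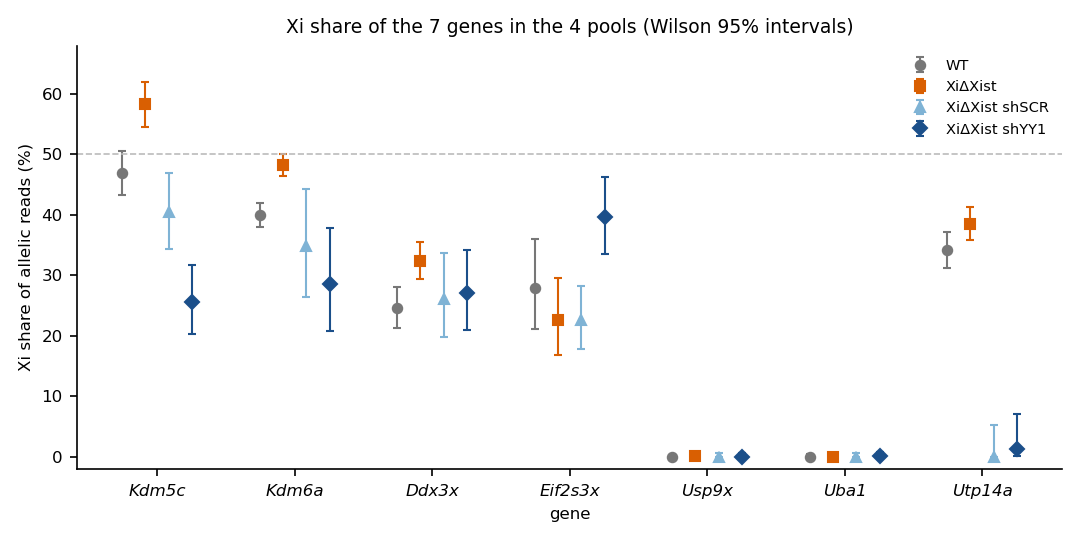
Xi share of allelic reads, in percent, for each of the 7 genes (x axis) in the 4 pools, with Wilson 95% intervals that cover counting error only and a dashed line at 50%. Kdm5c, Kdm6a and Ddx3x were highest in XiΔXist, Eif2s3x was highest in shYY1 at 39.7%, Usp9x and Uba1 stayed near 0 in every pool, and Utp14a had 34.1% in WT but 0 and 1.32% in the hairpin pools.

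The order of the 5 escape genes by Xi share in WT was Kdm5c, Kdm6a, Utp14a, Eif2s3x and Ddx3x. The intervals of Utp14a and Eif2s3x overlapped, as did those of Eif2s3x and Ddx3x, while the other neighbours in this order stood apart. In XiΔXist the order began with the same 3 genes, followed by Ddx3x and Eif2s3x, whose intervals overlapped. In shYY1 Eif2s3x came first, followed by Kdm6a, Ddx3x and Kdm5c, and the intervals of neighbours in that order overlapped down to Kdm5c.

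The first comparison asked how the balance of the alleles differed after loss of Xist. The Xi share rose in Kdm5c, Kdm6a and Ddx3x and did not pass the adjusted test in the other 4 genes. The share of Kdm5c was 11.4 percentage points higher in XiΔXist than in WT (95% interval 6.15 to 16.5, adjusted p = 0.000298, Fisher's exact test, two-sided, with Benjamini-Hochberg adjustment over 430 X-linked genes). That of Kdm6a was 8.29 points higher (5.62 to 10.9, adjusted p = 2.38e-08, Fisher's exact test) and that of Ddx3x 7.81 points higher (3.19 to 12.3, adjusted p = 0.0129, Fisher's exact test), and with all counts halved, in case mates were counted separately, Ddx3x no longer passed (adjusted p = 0.249, Fisher's exact test). Utp14a was 4.46 points higher (0.386 to 8.48), with an unadjusted p of 0.0354 and an adjusted p of 0.339 in the same exact test. Eif2s3x was 5.38 points lower, with an interval of -15.3 to 4.41 that reaches to both sides of 0 (adjusted p = 1.0, Fisher's exact test). Usp9x differed by 0.0735 points (0.00169 to 0.153, unadjusted p = 0.0408 and adjusted p = 0.381, Fisher's exact test), and Uba1 had no Xi read in either pool.

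The 3 of 7 genes that rose by this test compare with 7.91% of the 430 X-linked genes tested, and none of the 7 fell, against 0.698%. The 7 genes were not chosen blind to such results. The study lists Kdm5c, Kdm6a, Ddx3x, Eif2s3x and Utp14a among escape genes upregulated without Xist in blood progenitors. By the d-score, the Xi share minus 0.5, for which the study asks a rise of at least 0.03, 4 of the 7 genes rose (these 3 and Utp14a) and 1, Eif2s3x, fell, against 9.3% and 3.02% of X-linked genes. Most X-linked genes had no Xi read, so the 31 with a WT share between 10% and 90% are the nearer comparison. Of these, 15 rose by the d-score, 7 fell and 11 passed the adjusted test. Of the 9 protein-coding ones among them, which include the 5 escape genes described here, 7 rose, with a median of 8.29 points.

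The allelic balance of autosomal genes differed between the pools as well. Of 6354 autosomal genes with a 129 share between 10% and 90% in WT, the 129 share was higher with an adjusted p under 0.05 in 13.2% and lower in 23.4%, and 37.1% differed by at least 10 points between the pools. The quartiles of their differences were -9.13 and 4.63 points. The rises of Kdm6a and Ddx3x and that of Kdm5c are therefore of a size also met between these pools on autosomes, where the median difference was negative, at -2.12 points. The autosomal genes needed only 10 allelic reads per pool, whereas these 3 genes had at least 619. Depth was not matched, so counting error has a larger part in the autosomal sizes. The part of the clone, the libraries and the deletion in these differences was not tested.

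A higher Xi share can come from more RNA of the Xi allele or from less RNA of the Xa allele, and the 2 were separated by the CPM of each allele. These are bulk pools, so that fewer cells expressing an allele and less RNA of it per cell cannot be told apart. In Kdm5c the Xi allele was nearly level, at 14.2 CPM in WT and 13.6 in XiΔXist, while the Xa allele was lower, at 16.1 and 9.71 CPM. On the log2 scale the Xi allele differed by -0.07 (exact 95% interval -0.28 to 0.15) and the Xa allele by -0.73 (-0.96 to -0.50), which is 0.604-fold. With the Xi allele of WT held fixed, the Xa allele alone would have moved the share by 12.5 points, and the Xi allele alone by -1.14 points. The summed level of Kdm5c was lower in XiΔXist, by -0.38 on the log2 scale (-0.53 to -0.23).

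Kdm6a showed the opposite balance. Its Xi allele was at 39.1 CPM in WT and 51.4 in XiΔXist, a log2 difference of 0.39 (0.27 to 0.51), and its Xa allele at 58.7 and 55.1 CPM, a log2 difference of -0.09 (-0.20 to 0.01). The Xi allele alone would have moved the share by 6.69 points, and the Xa allele by 1.54 points.

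In Ddx3x both alleles were higher, the Xi allele more so. The Xi allele was at 6.25 and 10.3 CPM (1.64-fold, log2 difference 0.72, 0.43 to 1.01) and the Xa allele at 19.2 and 21.5 CPM (0.16, -0.02 to 0.34). The Xi allele alone would have moved the share by 10.3 points, and the Xa allele by -1.99 points.

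Utp14a resembled Kdm6a, with 13.6 and 16.5 CPM of the Xi allele (log2 difference 0.28, 0.08 to 0.49) and 26.2 and 26.3 CPM of the Xa allele (0.01, -0.15 to 0.16). Eif2s3x had 1.56 and 1.31 CPM of the Xi allele and 4.03 and 4.48 CPM of the Xa allele, and both intervals, -0.95 to 0.43 and -0.24 to 0.55 on the log2 scale, reached to both sides of 0. The Xa allele of the XCI subjective genes was close to level. Usp9x had 421 and 412 CPM (log2 difference -0.03) and Uba1 28.1 and 26.2 CPM (-0.10).

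**Figure D2:**
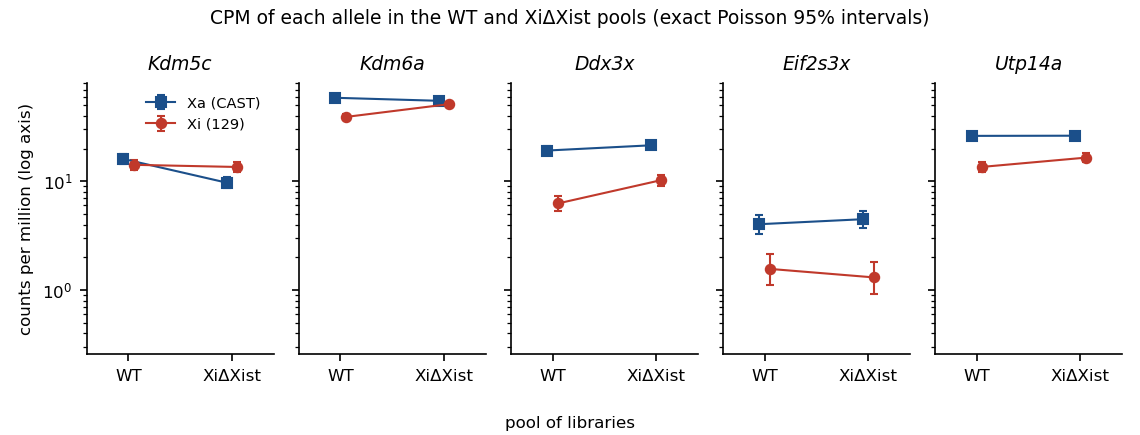
CPM of the Xa (CAST, squares) and Xi (129, circles) allele of the 5 escape genes in the WT and XiΔXist pools, on a log axis, with exact Poisson 95% intervals of the counts. In Kdm5c the Xa allele was lower in XiΔXist (16.1 and 9.71 CPM) and the Xi allele nearly level, whereas in Kdm6a and Ddx3x the Xi allele was higher (39.1 and 51.4 CPM, and 6.25 and 10.3 CPM).

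These values stand beside those of all X-linked genes with at least 50 reads of the allele in both pools together. The median log2 difference was -0.17 over the Xa allele of 382 genes and 0.43 over the Xi allele of 55 genes, where a gene may have passed the minimum through XiΔXist only. At a threshold of 1.5-fold, 1 of the 7 genes (Kdm5c) was lower on the Xa allele, against 22.0% of X-linked genes, and none was higher, against 6.54%. Of all these X-linked genes, 18.3% had an Xa difference at or below that of Kdm5c. On the Xi allele 1 of 5 (Ddx3x) was higher, against 49.1% of X-linked genes, and none was lower, against 3.64%. Neither share stands above the background. The median of autosomal genes was also negative, at -0.13 over summed alleles, and scaling to it raised every difference by 0.12. The Xa difference of Kdm5c was then -0.60, and relative to the median of the Xa alleles, a scaling chosen after seeing the data, it was -0.56, short of 1.5-fold. Under both the Xa allele still carried the larger part of the rise, 10.4 and 9.71 points, and the Xi allele 1.01 and 1.72 points.

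**Figure D3:**
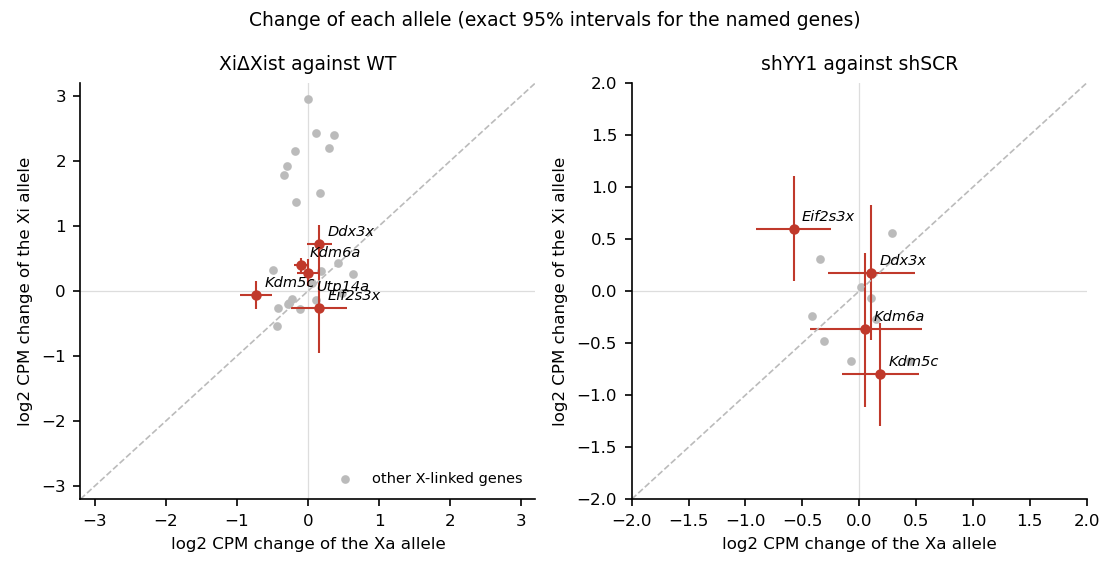
Log2 CPM change of the Xi allele (y axis) against that of the Xa allele (x axis) for XiΔXist against WT (left) and shYY1 against shSCR (right), with exact 95% intervals for the named genes. Grey points are other X-linked genes with at least 50 reads of each allele over both pools and neither allele at 0 in a pool. Genes without an Xi read in WT, such as Rps4x with 711 in XiΔXist, are therefore not drawn on the left. The dashed line marks equal change, where the Xi share does not move, and on the left 22 of 31 other genes lie within the axes. Kdm5c lies to the left of the line on the left panel through its Xa allele (-0.73) and below it on the right panel through its Xi allele (-0.80), and Eif2s3x lies in the upper left of the right panel.

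The second comparison asked how the alleles responded to YY1 knockdown in cells without Xist on the Xi. Eif2s3x was the only one of the 7 genes that passed the adjusted test. Its Xi share was 17.1 points higher in shYY1 than in shSCR (8.66 to 25.3, adjusted p = 0.0124, Fisher's exact test over 311 X-linked genes), and 0.322% of X-linked genes rose and 0.322% fell by this test. With counts halved it did not pass (adjusted p = 1.0, Fisher's exact test). Both alleles of Eif2s3x moved, in opposite directions. The Xi allele was at 23.0 CPM in shSCR and 34.7 in shYY1 (log2 difference 0.60, 0.09 to 1.11), and the Xa allele at 78.5 and 52.7 CPM (-0.58, -0.91 to -0.25). Each allele alone would have moved the share by a similar amount, 8.03 points for the Xi and 7.73 points for the Xa allele. The summed level was -0.22 on the log2 scale (-0.49 to 0.05).

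Kdm5c differed in the other direction, without passing the adjusted test. Its Xi share was 14.9 points lower in shYY1 (interval -23.2 to -6.17, unadjusted p = 0.00093 and adjusted p = 0.0963, Fisher's exact test). The Xi allele was at 38.9 CPM in shSCR and 22.4 in shYY1 (log2 difference -0.80, -1.30 to -0.30), and the Xa allele at 57.2 and 65.1 CPM (0.19, -0.15 to 0.52). The lower share was carried by the Xi allele, with -12.3 points for this allele alone and -3.05 points for the Xa allele alone. Between WT and XiΔXist it had been the Xa allele that differed.

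**Figure D4:**
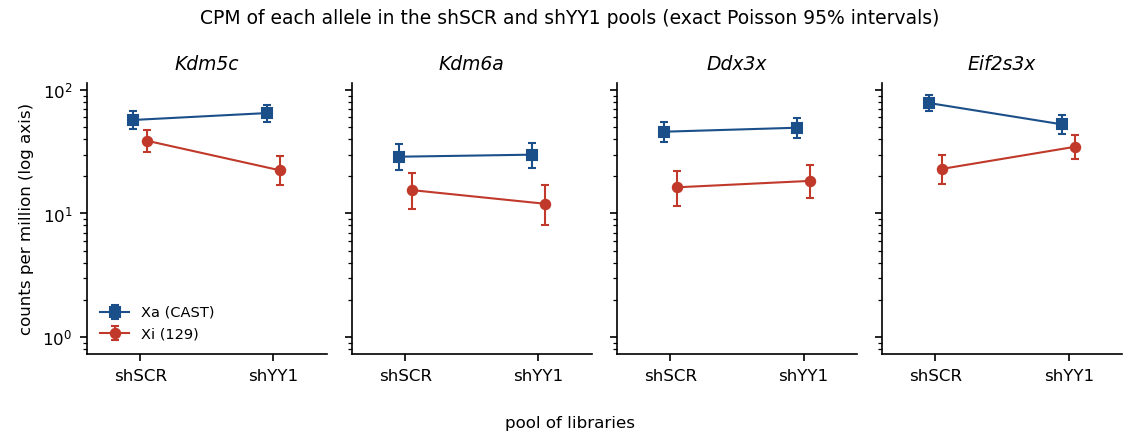
CPM of the Xa (CAST, squares) and Xi (129, circles) allele of Kdm5c, Kdm6a, Ddx3x and Eif2s3x in the shSCR and shYY1 pools, on a log axis, with exact Poisson 95% intervals of the counts. The alleles of Eif2s3x draw together in shYY1 (34.7 and 52.7 CPM), those of Kdm5c draw apart (22.4 and 65.1 CPM), and the intervals of Kdm6a and Ddx3x overlap between the pools.

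Kdm6a was 6.33 points lower in shYY1 (-18.6 to 6.18) and Ddx3x 0.884 points higher (-8.87 to 10.5), both with an adjusted p of 1.0 in Fisher's exact test. These intervals do not exclude differences as large as those between WT and XiΔXist, for Kdm6a only in the direction of a lower share. For Usp9x, Uba1 and Utp14a no difference in Xi share was detectable at this depth, and their Xa alleles differed by 0.03, 0.12 and 0.08 on the log2 scale. By the d-score 1 of the 7 genes was higher (Eif2s3x) and 2 were lower (Kdm5c and Kdm6a), against 6.43% and 4.82% of X-linked genes. The nearer comparison is the 22 X-linked genes with a share between 10% and 90% in shSCR. They include Kdm5c, Kdm6a, Ddx3x and Eif2s3x. Of the 22, 7 were higher and 10 lower by the d-score, and 2 passed the adjusted test. Moves past this threshold were thus common among such genes. Of the autosomal genes with a 129 share of 10 to 90% in shSCR, the adjusted test called 1.75% higher and 1.29% lower, and 39.2% differed by at least 10 points.

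Among the 18 X-linked genes with at least 50 Xi reads in the hairpin pools together, the Xi difference of Eif2s3x was the highest and that of Kdm5c the lowest. At 1.5-fold, 5.56% of these 18 genes were higher and 16.7% lower. The Xa difference of Eif2s3x did not reach 1.5-fold, which 7.76% of 232 X-linked genes did on the lower and 5.17% on the higher side, and 9.91% were at or below it. The median log2 difference of the Xa allele was -0.03, and the Xi change of Kdm5c and both allelic changes of Eif2s3x kept their direction under the 4 other scalings tried. The promoter windows of both Eif2s3x and Kdm5c, shown above, hold the YY1 motif, and their Xi shares moved in opposite directions. Uba1, with a match in one of its windows, had 231 and 251 CPM of its Xa allele in shSCR and shYY1.

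The shSCR and untreated XiΔXist pools carry the same deletion and were compared to see whether the shares found after loss of Xist recur in transduced cells. They did not recur for several genes. The share of Kdm5c was 17.8 points lower in shSCR (interval -25.0 to -10.3, adjusted p = 6.51e-05, Fisher's exact test over 296 X-linked genes), and that of Utp14a 38.6 points lower (-41.4 to -32.6, adjusted p = 5.5e-13, Fisher's exact test). Kdm6a was 13.4 points lower (-21.9 to -3.73, adjusted p = 0.0755, Fisher's exact test) and Ddx3x was lower by a difference of -6.19 points (-13.3 to 1.962). Eif2s3x differed by 0.0728 points (-8.41 to 8.13). The adjusted test called 5.74% of X-linked genes lower and 3.38% higher. By the d-score, 4 of the 7 genes were lower and none higher, against 9.12% and 5.41% of X-linked genes. The nearer comparison is the 26 X-linked genes with a share between 10% and 90% in untreated XiΔXist. They include Kdm5c, Kdm6a, Ddx3x, Eif2s3x and Utp14a. Of the 26, 21 were lower and 4 higher by the d-score, 18 passed the adjusted test, and the median difference was -22.6 points. The 26 were selected by their share in untreated XiΔXist, which favours falls. Genes high in that pool only are included, such as Rps4x (44.8%, and 0 Xi reads in shSCR). Genes high in shSCR only are left out, such as Fundc1 (0.0251% and 29.9%). Lower shares in shSCR were common among the genes selected in this way. In shSCR the shares of Kdm5c, Kdm6a and Ddx3x thus lay near those of WT, although shSCR cells lack Xist on the Xi.

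Differences of this kind were common between these pools on autosomes as well. Of 5251 autosomal genes with a 129 share of 10 to 90% in XiΔXist, 55.1% differed by at least 10 points in shSCR and 35.6% passed the adjusted test in either direction. The autosomal gene Yy1 had a 129 share of 47.1% in XiΔXist and 27.4% in shSCR. Allelic levels also differed in ways that depended on the gene. The summed CPM of Eif2s3x was 17.5 times as high in shSCR as in untreated XiΔXist, that of Uba1 8.81 times and that of Kdm5c 4.13 times, while those of Utp14a, Usp9x and Kdm6a were 0.664, 0.595 and 0.416 times the untreated value. For this reason no difference in level between untreated and hairpin pools was tested or used in a comparison of alleles. The hairpin libraries had a longer read length than the untreated ones according to the supplementary list of libraries, and the part of sequencing and of transduction in these differences cannot be told apart.

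In WT and XiΔXist the nearest protein-coding neighbours of the 5 escape genes had few or no Xi reads. Some of these neighbours had too few reads to exclude a share of several percent. For each gene the nearest protein-coding gene with at least 10 allelic reads in WT and XiΔXist was taken on each side. Genes that do not code for protein were left out, and some of them were read from the Xi. Mir221 and Gm14636, between Kdm6a and Chst7, had Xi shares of 7.10% and 7.41% in WT. In XiΔXist these were 42.5% and 56.3%. Kdm5c lay between Smc1a, 170 kb away, and Tspyl2, 62.3 kb away, and neither had an Xi read in WT or XiΔXist (0 of 784 and 798 reads, which allows at most 0.383% and 0.376%, and 0 of 155 and 142 reads, which allows 1.94% and 2.11%). Eif2s3x lay between Zfx, 65.0 kb away, and Klhl15, 21.7 kb away, which had Xi shares of 0.382% and 0.1997% in WT. In the hairpin pools Zfx had 3 Xi reads of 57 and 6 of 66, and Klhl15 none. Utp14a lay between Zdhhc9 and Bcorl1, 48.0 and 58.9 kb away, with no Xi read in any pool. In WT and XiΔXist Zdhhc9 had 117 and 82 reads, which allows 2.56% and 3.66%, and Bcorl1 only 25 and 24, of which the latter allows 12.5%. Kdm6a lay between Fundc1 (590 kb) and Chst7 (1780 kb). Fundc1 had 15 Xi reads of 2655 in WT and 1 of 3981 in XiΔXist, but 20 of 67 in shSCR and 17 of 58 in shYY1, whereas Chst7 had none in any pool, of 113 reads in WT and 35 in XiΔXist, which allows 2.65% and 8.57%.

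Usp9x showed the reverse arrangement. It was nearly silent on the Xi but lay between escape genes, with Ddx3x 108 kb to one side and Med14, a Mediator subunit, 309 kb to the other. Med14 had an Xi share of 22.2% in WT (1306 of 5874 reads) and 41.8% in XiΔXist (4319 of 10321, adjusted p = 1.53e-143, Fisher's exact test), and 28.1% and 28.6% in shSCR and shYY1. Between these genes the Xi share of Usp9x was 0.0293% in WT and 0.103% in XiΔXist, from 10243 and 11671 reads. On the other side of Ddx3x, Cask, 223 kb away, had 0 Xi reads of 499 in WT and 4 of 926 in XiΔXist. Uba1 lay between Cdk16, 4.78 kb away, and Ndufb11, 40.7 kb away. In WT these had 2 Xi reads of 134 (1.49%, 0.410 to 5.28) and 2 of 344 (0.581%, 0.160 to 2.09), and in XiΔXist none of 178 and 354.

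**Figure D5:**
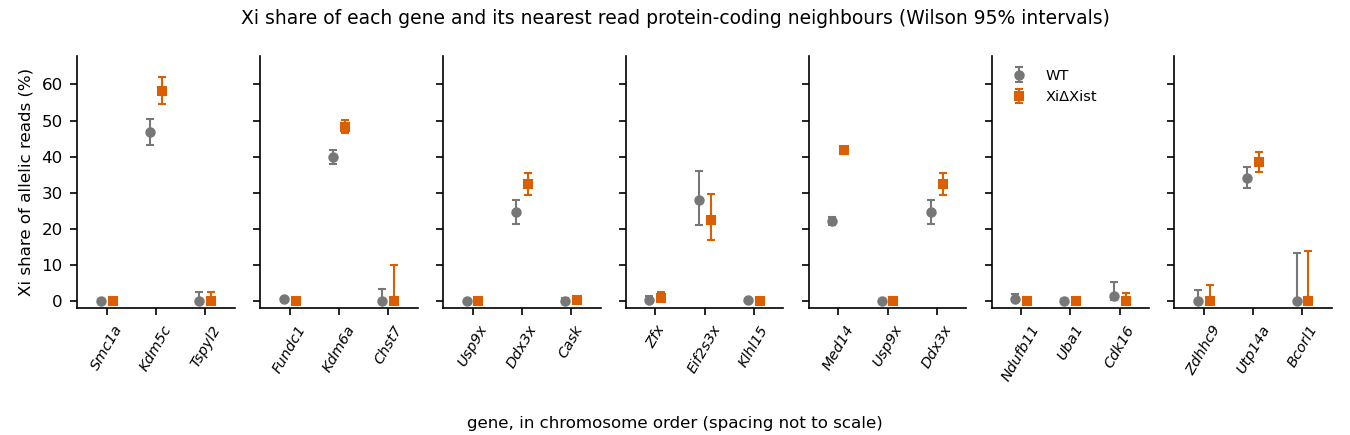
Xi share of allelic reads, in percent, for each of the 7 genes (centre of each panel) and its nearest protein-coding neighbours with reads, in WT (circles) and XiΔXist (squares), with Wilson 95% intervals and spacing not to scale. Genes that do not code for protein are not drawn. The 5 escape genes stand above protein-coding neighbours near 0, and Usp9x lies near 0 between Med14 (22.2% and 41.8%) and Ddx3x (24.6% and 32.4%).

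With the 7 genes themselves left out, the X-linked gene whose 4 Xi shares were nearest to those of Kdm6a, Ddx3x and Eif2s3x was in each case Med14, at Euclidean distances of 20.04, 10.1 and 23.7 percentage points over the 4 pools, among 133 genes with at least 50 reads in each pool. The nearest of these 133 to Kdm5c was 1810030O07Rik, at 23.3 points, with shares of 48.5%, 73.1%, 29.6% and 39.7% in the order WT, XiΔXist, shSCR and shYY1. Gm38020 was nearest to Utp14a, at 23.7 points, with 17.1%, 43.6%, 14.1% and 8.22%. None of these is close, since none of the 133 lay within 1 point of any of the 5. Usp9x was nearest to Pola1, at 0.0197 points, and 89 of the 133 genes lay within 1 point of it. For Uba1, 22 genes were equally near, among them Shroom4, with no Xi read.

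Of 10 other genes known to escape XCI, 7 rose by the adjusted test after loss of Xist and none fell, against 7.91% and 0.698% of X-linked genes. After YY1 knockdown none of 9 passed. In shSCR against untreated XiΔXist none of 9 was higher and 3 were lower, against 3.38% and 5.74%, with a median of -12.1 points. In shSCR Pbdc1 had an Xi share of 45.3% and 5530601H04Rik of 41.2% (18.0% in WT), but Ftx of 17.2% (16.4% in WT). The rises thus recurred in some of these genes and not in others. Bgn, counted as a rise, reached only 0.617%. Pbdc1, Car5b, Mid1, Shroom4 and Bgn did not meet the escape cutoff in WT. Ftx and 5530601H04Rik, noncoding genes, were 28.0 and 34.2 points higher in XiΔXist (adjusted p = 2.4e-82 and 4.48e-89, Fisher's exact test), and their Xi alleles were higher by 2.39 and 2.43 on the log2 scale. Pbdc1 had a share of 0.0327% in WT and 57.4% in XiΔXist. The Xa alleles of these 3 genes, which were chosen after their values were seen, differed by 0.37, 0.12 and -0.11. Jpx, which passed no adjusted test (13.9 points, adjusted p = 0.0824, Fisher's exact test), differed by 0.33 on its Xi and by -0.50 on its Xa allele.

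The autosomal relatives of the 7 genes serve as a comparison of levels summed over both alleles. Between WT and XiΔXist none of them reached 1.5-fold. Kdm5a and Kdm5b, H3 lysine 4 demethylases like Kdm5c, differed by -0.05 (-0.12 to 0.03) and 0.16 (-0.06 to 0.39) on the log2 scale, against -0.38 for Kdm5c itself. Eif2s1 and Eif2s2, which encode the other eIF2 subunits, differed by 0.23 and -0.17, Usp24 by -0.15, Uba6, a further E1 enzyme for ubiquitin, by -0.25, and Utp14b, an autosomal copy of Utp14a, by 0.23. The medians of autosomal genes given above apply to these values. Kdm6b and Uba7 had too few reads. D1Pas1, an intronless relative of Ddx3x, and the Y-linked genes Kdm5d, Uty, Ddx3y, Eif2s3y and Usp9y had 0 allelic reads in all 4 pools, so that no reads were counted to these copies. Whether reads of near-identical copies were lost through the mapping filter was not tested.

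After YY1 knockdown Eif2s2, which encodes the beta subunit of eIF2, was lower, at 113 CPM in shSCR and 67.1 in shYY1 (log2 difference -0.76, -1.04 to -0.47, 0.592-fold), and it was the only relative with enough reads that passed 1.5-fold. Eif2s1, the alpha subunit, was at 18.8 and 27.2 CPM (0.53, -0.03 to 1.11), and Eif2s3x, the gamma subunit, at -0.22. Kdm5b differed by -0.54 (-1.03 to -0.06), Utp14b by 0.45 (0.09 to 0.81), Kdm6b by -0.13, Kdm5a by 0.04, Usp24 by 0.08 and Uba6 by -0.21.

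The partners of the 7 proteins were described as lists, by their counts past 1.5-fold over summed alleles. After loss of Xist, of the KDM6A complex 0 of 8 genes tested were higher by 1.5-fold and 2 lower (median log2 difference -0.22), with Kmt2d, a histone methyltransferase of that complex, lowest at -0.81. None of 7 genes of eIF2 and its exchange factor eIF2B passed in either direction (median 0.10). Nor did any of 14 genes in the joint list of cap-dependent initiation and DEAD-box RNA helicases (median -0.07). Of the E1 enzymes 1 of 8 was lower (Nae1, a subunit of the E1 for the ubiquitin-like NEDD8, at -0.94, median -0.26) and of the small-subunit processome 3 of 31 (Utp4 lowest at -1.21, median 0.02). Over all 10315 autosomal genes 8.4% were higher and 17.8% lower, with a median of -0.13.

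After YY1 knockdown 2 of 7 eIF2 and eIF2B genes were lower and none higher, with a median of -0.45 and Eif2s2 lowest. In the list of cap-dependent initiation and DEAD-box RNA helicases 1 of 14 was lower (Eif4g3, a scaffold protein of initiation, at -0.84, median -0.15). In the processome 2 of 33 were lower (Wdr36 lowest at -0.80, median -0.09). The KDM6A complex and the E1 enzymes had none past 1.5-fold, with medians of -0.13 and -0.21. Over 7979 autosomal genes 5.65% were higher and 9.51% lower, with a median of -0.08.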

How the data were processed

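Replicates were merged by the authors before alignment to a strain-masked mouse genome (GRCm38, mm10) with TopHat, according to their methods. After a mapping quality filter, SNPsplit sorted the reads by strain, and featureCounts 1.6.3, per the labels, counted those in exons. The deposited values are raw counts per Ensembl gene and allele, in 8 tables. The strand setting and the annotation used by the authors are not given in the sources used here, and mates of a pair may have been counted separately. Gene names and positions came from GENCODE M21, in which 45143 of 46078 IDs matched, and the 935 others stayed in the totals.

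Groups were taken from the labels. Xi shares were given with Wilson 95% intervals, and a count of 0 with the limit that 3 counts set. Shares were compared between pools by Fisher's exact test, two-sided, for X-linked genes with 10 or more allelic reads in each, and p-values were adjusted by Benjamini-Hochberg (threshold 0.05). CPM of an allele was its counts divided by all allelic reads of the pool, times 1000000, and ratios carry exact conditional 95% intervals and no p-value. They were called at 1.5-fold where the 2 pools together held 50 or more reads. Shares with only 1 allele changed were computed as a description. Depth ran from 2393545 to 28329701 allelic reads. The genes and lists were chosen with earlier results of these data known. The genes named besides the 7 are Xist and Yy1, their paralogs and partners, the nearest neighbours with reads on each side, for each gene the X-linked gene with the nearest Xi shares, the largest rise and fall in each list past 1.5-fold, and, chosen after their values were seen, Ftx, 5530601H04Rik, Pbdc1 and Jpx of the known escape genes. The comparison was tested on simulated data. Other read minimums, thresholds, scalings, intervals and gene sets were tried. Python 3.11.15 was used with numpy 2.4.6, pandas 2.3.3, scipy 1.17.1 and matplotlib 3.10.9.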

Additional observations from a re-analysis of the deposited data

How the results depend on the processing

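No paired analysis was possible because the replicates of each group were pooled in 1 column per allele, and for the same reason no replicate could be left out. With counts halved, as if mates had been counted separately, Ddx3x (adjusted p = 0.249, Fisher's exact test) and Eif2s3x in shYY1 (adjusted p = 1.0) lost their calls, which left 0 of the 7 genes in the latter comparison. Scaling CAST reads to an even autosomal median multiplied them by 2.3 to 2.92, with 2.71 in WT and 2.3 in XiΔXist. This difference by itself raises Xi shares in XiΔXist against WT. The test took scaled counts as reads, more than were sequenced, so its p-values there are too small and the added calls are no evidence. On these terms Fisher's exact test called Utp14a in XiΔXist (adjusted p = 0.000104), Kdm5c was called in shYY1 (adjusted p = 0.0152, 2 genes called), 4 genes were called in shSCR against untreated XiΔXist, no gene fell by the d-score in XiΔXist (0), and the near-zero difference of Eif2s3x between shSCR and untreated XiΔXist turned to -1.95 points. Scaled on autosomal genes read from both alleles, a choice made after seeing the data, that difference was -1.56 points, 0 genes fell in XiΔXist, and 4 passed Fisher's exact test there, Utp14a included (6.81 points, adjusted p = 0.00611). The same limit holds for this scaling. At a d-score threshold of 0.1, 1 gene rose and 0 fell in XiΔXist, and 1 fell in shYY1. Without overlapping genes 1 gene, not 2, was called in shSCR against untreated XiΔXist. Relative to the median of the Xa alleles, 0 genes were lower on the Xa allele in XiΔXist. At the lower of the other fold thresholds the Xi allele was higher in 2 genes in XiΔXist and lower in 2 in shYY1, and the Xa allele lower in 1 in shYY1. At 2-fold each of these counts was 0. The shares of 1 Xi read (Uba1 and Utp14a in shYY1) became 0 on halved counts. Of the other values recomputed, 182 for counts and shares and 291 for single genes kept their direction and call or stayed within their intervals. Depth limits the hairpin pools, where Kdm6a had 106 and 105 reads.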
